A study of Ovis aries with 4 samples.

Results

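BCL11B, EBF1, FOXP2, ISL1 and SP9 are 5 transcription factors of striatal spiny neurons, and their transcripts were followed across nuclei classes and libraries of frozen sheep striatum. They were chosen by symbol and are 5 of the 26478 genes listed in the deposited tables, under the identifiers ENSOARG00020015087 (BCL11B), ENSOARG00020023107 (EBF1), ENSOARG00020001223 (FOXP2), ENSOARG00020004124 (ISL1) and ENSOARG00020001556 (SP9). The study set whole cells, released with the protease papain, beside nuclei, released with a dounce homogeniser in a detergent buffer, as input for droplet-based RNA sequencing of frozen tissue. Each kind of input had 2 libraries, each a pool of 2 sheep of 5 years: by the sample titles, replicate 1 held sheep 1 and 2 and replicate 2 held sheep 3 and 4. The labels name no genotype, sex, breed or treatment. Pools of different animals are the replicates. In the main fits, p-values between classes of nuclei rest on how class differences vary between pools, with the level of each pool set aside. Those of nuclei against whole cells rest on the spread between pools. No p-value below measures the spread between single animals.

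Medium spiny neurons are the GABAergic projection neurons that make up most striatal neurons. Those of the direct pathway carry the dopamine receptor D1 with the peptides of TAC1 and PDYN, and those of the indirect pathway carry the dopamine receptor D2 with the peptide of PENK. BCL11B, also known as CTIP2, is a zinc finger factor needed for spiny neurons of both pathways to differentiate. EBF1 and the LIM homeodomain factor ISL1 act in the development of direct-pathway neurons, and ISL1 also acts in striatal cholinergic interneurons. SP9 is a zinc finger factor needed for indirect-pathway neurons, and FOXP2 is a forkhead factor of spiny neurons and other brain cells, known from inherited speech disorder.

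The 4 libraries held between 1115058 and 70473292 unique molecular identifiers (UMIs, counts of single captured transcripts), and 8700 and 8388 barcodes of the nuclei libraries passed the limits on genes and mitochondrial share. Pairs of libraries shared between 2 and 87 cell barcodes, at most 0.997% of the smaller library. After removal of the highest doublet scores, 8004 and 7717 nuclei were clustered without the 5 factors, so no class rests on them, and classes were named from marker lists. In all that follows, paired values are nuclei replicate 1 and then nuclei replicate 2, and CPM, counts per 1000000, is UMIs of the gene per 1000000 UMIs of that class in that library. The spiny-like class held 1159 and 1127 nuclei, with 9 spiny markers raised in each of its clusters, among them PDE10A, RGS9, ARPP21, ADCY5 and RARB. It came as 1 cluster of 1147 and 279 nuclei and another of 12 and 848, so its makeup by cluster differed between the libraries, and its median depth was 31998 and 17888 UMIs. A smaller class of 71 and 86 nuclei with OTOF, ALK and TSHZ1 raised was called eccentric spiny-like, after spiny neurons that stand apart from both pathways.

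The 5 factors fell into different patterns over the 8 classes with at least 20 nuclei in each library. BCL11B was at a like level in the 4 neuron classes as clustered and lower in the glial classes, EBF1 was highest in spiny-like nuclei, FOXP2 was highest in eccentric spiny-like nuclei, ISL1 had UMIs only in the cholinergic-like and spiny-like classes among these 8, and SP9 was highest in interneuron-like nuclei. In the test of spiny-like nuclei against the mean of the other 7 classes (edgeR quasi-likelihood test on UMI sums per class and library, library as a block), 4 of the 5 passed an adjusted p of 0.05. Over all 12860 genes tested, 50.8% passed, so passing this test is common among genes. Against interneuron-like nuclei alone 3 of the 5 passed, where 33.9% of all genes did.

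**Figure D1:**
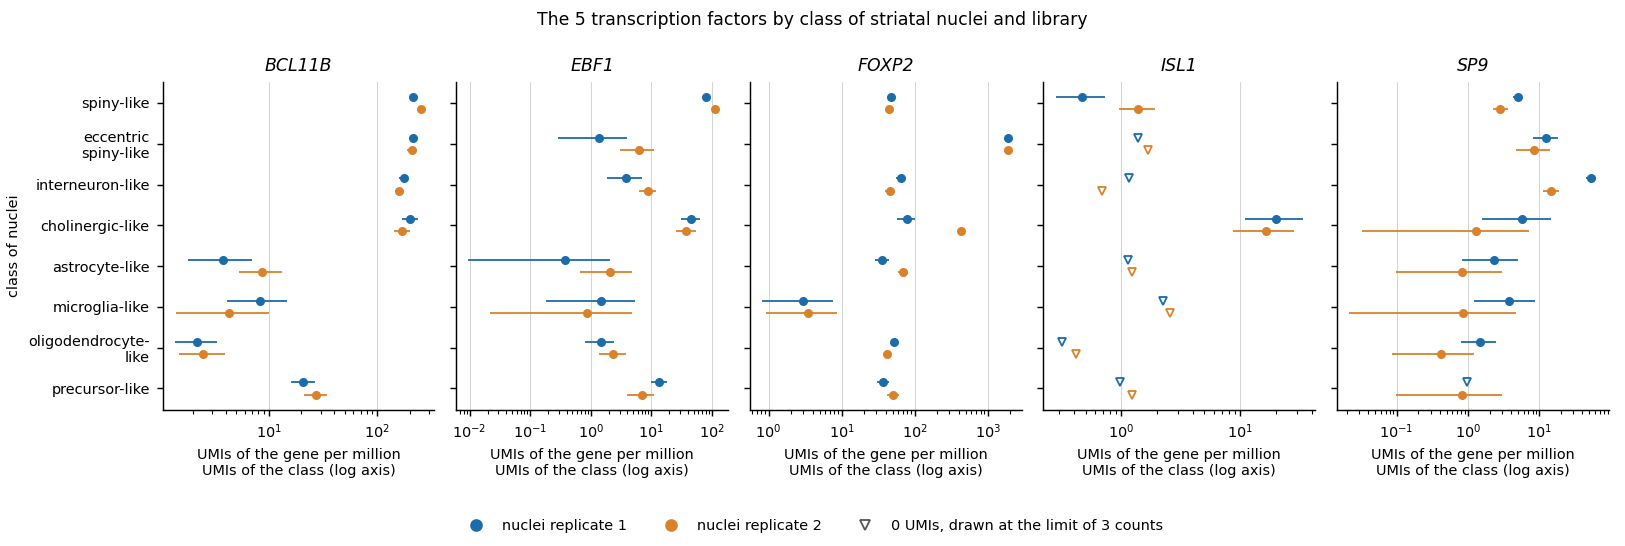
CPM of each factor (horizontal log axis) in 8 nuclei classes, 1 point for each nuclei library, with exact 95% Poisson intervals that cover counting error only; triangles mark the limit of 3 UMIs where none was counted. BCL11B stands at 157.6 to 251.8 CPM in the 4 neuron classes, and FOXP2 reaches 1918 and 1882 CPM in the eccentric spiny-like class.

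BCL11B had 214.9 and 251.8 CPM in spiny-like nuclei, 214.3 and 210.1 in eccentric spiny-like, 201.2 and 170.4 in cholinergic-like and 175.6 and 157.6 in interneuron-like nuclei. The last 2 of these classes overlapped between libraries, while the spiny-like and eccentric spiny-like classes stayed apart by a narrow margin. Oligodendrocyte precursor-like nuclei had 20.7 and 27.0 CPM, and microglia-, astrocyte- and oligodendrocyte-like nuclei had 2.20 to 8.62 CPM. The 4 neuron classes as wholes stood above the glial classes in both libraries, but the 14 and 14 nuclei of the cholinergic-like class that had cholinergic genes were at 17.1 and 5.04 CPM, from 5 and 2 UMIs, within the glial range. Spiny-like nuclei stood 26.1- and 58.9-fold above microglia-like and 97.7- and 101-fold above oligodendrocyte-like nuclei. Against the mean of the other classes it was higher in spiny-like nuclei by 3.38 on the log2 scale (SE 0.12, adjusted p = 5.2e-11). Against interneuron-like nuclei the difference was far smaller, 1.22- and 1.60-fold, or 0.76 on the log2 scale (SE 0.18, adjusted p = 0.0049). That smaller difference was 0.48 with an adjusted p of 0.059 when libraries were scaled by size alone, the highest p among its alternatives, which otherwise reached down to 3.1e-04.

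Nearly every spiny-like nucleus held a BCL11B transcript. A UMI was found in 97.2% and 93.3% of spiny-like nuclei, against 1.07% and 0.662% of microglia-like nuclei, which should lack the gene and had median depths of 1657 and 1388 UMIs. Since depth sets such shares, each nucleus was also thinned to 1000 UMIs, and the shares were then 19.4% and 21.5% in spiny-like, 8.76% and 11.2% in interneuron-like and 0.583% and 0.498% in microglia-like nuclei. The order of the 3 classes was the same before and after thinning. Spiny-like nuclei held 85.2% and 82.4% of BCL11B UMIs, beside 63.5% and 55.2% of all UMIs and 14.5% and 14.6% of the nuclei. The highest level was in the lymphocyte-like cluster, with 1246 and 824 CPM, which rests on 13 and 7 UMIs in 5 of 11 and 5 of 8 nuclei; BCL11B is also a factor of T cells.

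EBF1 was a spiny-like gene with few transcripts in the other named classes. It had 80.9 and 111.3 CPM in spiny-like nuclei, 46.0 and 38.1 in cholinergic-like (none of it from nuclei with cholinergic genes) and 13.6 and 6.96 in precursor-like nuclei. The other 5 classes lay at 0.379 to 8.74 CPM, each overlapping with the next, the eccentric spiny-like nuclei among them with 1.38 and 6.21. The 2 spiny classes, which were alike in BCL11B, were thus 58.8- and 17.9-fold apart in EBF1. These ratios rest on only 3 and 11 EBF1 UMIs in the eccentric spiny-like nuclei. Its log2 fold change was 4.79 against the mean of the other classes (SE 0.21, adjusted p = 2.8e-10) and 4.11 against interneuron-like nuclei (SE 0.36, adjusted p = 9.7e-07). Spiny-like nuclei held 93.1% and 94.3% of EBF1 UMIs, and 40.2% and 46.1% of them had at least 1 (7.08% and 10.6% thinned), against 0.267% and 0.132% of microglia-like nuclei (0.146% and 0.166% thinned). Outside the named classes, a cluster of 32 and 22 nuclei in which endothelial and fibroblast marker lists tied had 2103 and 1675 CPM of EBF1, from 130 and 47 UMIs in 59.4% and 63.6% of its nuclei.

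FOXP2 did not mark the spiny-like class as a whole. Spiny-like nuclei had 47.7 and 44.0 CPM, overlapping with interneuron-like (64.3 and 45.6), astrocyte-like (36.0 and 70.2), oligodendrocyte-like (52.4 and 42.5) and precursor-like nuclei (36.6 and 50.8). The cholinergic-like class as a whole was above them at 77.6 and 433.6 CPM, but its 14 and 14 nuclei with cholinergic genes were below them at 3.42 and 32.8 CPM, from 1 and 13 UMIs. Microglia-like nuclei were below all of these at 2.99 and 3.42 CPM. Against the mean of the other classes the log2 fold change was -0.26 (SE 0.36, adjusted p = 0.60), and against interneuron-like nuclei it was 0.03 (SE 0.45, adjusted p = 0.97). Eccentric spiny-like nuclei had 1918 and 1882 CPM, 40.3- and 42.8-fold above spiny-like nuclei, and held 56.5% and 58.0% of all FOXP2 UMIs, beside 3.39% and 3.86% of all UMIs and 0.887% and 1.11% of the nuclei. In the 3 clusterings that gave no separate eccentric class, the value was instead above 0: 2.19 at a finer resolution (adjusted p = 8.1e-05), 1.44 with doublets kept (adjusted p = 9.7e-04) and 0.48 for nuclei with at least 500 genes (adjusted p = 0.12). Against interneuron-like nuclei FOXP2 passed in those 3 clusterings, at 1.38 to 1.92, and its adjusted p over all alternatives of both comparisons ran from 8.1e-05 to 1.0.

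ISL1 had few transcripts, 34 and 52 UMIs in all over the nuclei libraries. Cholinergic-like nuclei had 14 and 13 UMIs (20.1 and 16.5 CPM) and spiny-like nuclei 19 and 35 (0.465 and 1.38 CPM). All other named classes had 0 in both libraries. The cholinergic-like level was at least 17.4- and 23.9-fold above the interneuron-like one, and the spiny-like level at least 1.48- and 3.32-fold above the oligodendrocyte-like one, taking 3 UMIs per library as the limit that a count of 0 allows. ISL1 passed the test against the mean of the other classes (adjusted p = 0.0061; 0.61 with DESeq2, its highest over the alternatives), although the cholinergic-like class stood above the spiny-like class in both libraries, and against interneuron-like nuclei it did not (adjusted p = 0.063). Only 1.55% and 2.48% of spiny-like nuclei had an ISL1 UMI, and after thinning 0% (which leaves room for 0.259%) and 0.355%, so at this depth most nuclei cannot be scored for ISL1.

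Among the 8 classes SP9 was highest in interneuron-like nuclei, at 53.2 and 14.5 CPM, and spiny-like nuclei had 4.97 and 2.84. An unnamed cluster of 466 and 240 nuclei was above both at 55.4 and 40.9 CPM. Eccentric spiny-like nuclei lay between them with 12.4 and 8.47, and the other classes lay at 0 to 5.75 CPM, each overlapping with the next. Interneuron-like nuclei stood 10.7- and 5.10-fold above spiny-like nuclei, -2.66 on the log2 scale for spiny-like against interneuron-like (SE 0.32, adjusted p = 1.9e-05). Both interneuron clusters had SP9: the one with SST, NPY and NOS1 had 109 and 34.6 CPM, and the one with PVALB, PTHLH and KIT had 39.9 and 11.2. Replicate 1 was higher than replicate 2 in each of these clusters. Against the mean of all other classes SP9 was higher in spiny-like nuclei by 0.85 (SE 0.31, adjusted p = 0.032), a call lost under 4 alternatives (adjusted p from 4.9e-04 to 0.27 over all of them). A SP9 UMI was found in 13.6% and 5.94% of spiny-like nuclei. Thinned shares of 0.431% and 0.266% were near those of microglia-like nuclei (0.583% and 0.166%), so at that depth they do not set these classes apart.

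The spiny-like class was then divided by pathway markers. The division set out first, nuclei with UMIs of the D1 list and none of the D2 list against the reverse, left only 4 and 33 nuclei on the D2 side against 571 and 647, because RELN of the D1 list was found in 98.7% and 86.8% of nuclei of D2-like subclusters. In it 2 of the 4 factors tested passed, EBF1 (log2 fold change 6.24, SE 0.53) and FOXP2, beside 0.697% of all genes, with EBF1 UMIs of 2904 and 2556 on the D1 side and 0 and 2 on the D2 side, and FOXP2 UMIs of 1607 and 993 against 0 and 0. SP9 differed by a log2 fold change of -3.03 that did not pass (SE 1.02, adjusted p = 0.25), and BCL11B by 0.10 (SE 0.22, adjusted p = 1.0). ISL1, with 15 and 34 UMIs on the D1 side and 0 and 0 on the D2 side, did not pass the filter on low counts and was not tested. The division used below therefore came from clustering the spiny-like nuclei, again without the 5 factors; it had been listed as an alternative and was taken up in detail after the first had been seen. Subclusters with at least 90% of their D1 and D2 list UMIs from the D1 list were called D1-like (506 and 476 nuclei, median depth 32779 and 16213 UMIs), and those with at most 33% D2-like (540 and 355 nuclei, 31491.5 and 15501 UMIs). The remaining 113 and 296 nuclei were mixed, and they had 484 and 72.1 CPM of the oligodendrocyte list, against 18.7 to 37.1 CPM in the D1-like and D2-like sums of both libraries. Of the 296 mixed nuclei of replicate 2, 193 were a single subcluster that held 0 nuclei of replicate 1, with 288 UMIs of the D1 list and 405 of the D2 list. At a clustering resolution of 1.0, the subclusters with 0 nuclei of replicate 1 were a D1-like one of 101 nuclei and a D2-like one of 97.

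Between these groups the 5 factors split by pathway in both libraries. EBF1, FOXP2 and ISL1 were on the D1-like side, SP9 was on the D2-like side, and BCL11B was close to equal. All 5 passed an adjusted p of 0.05 in edgeR with the library as a block, where 7.06% of the 13783 genes tested did. This fit has 1 residual degree of freedom and leans on the spread shared across genes. With DESeq2 only EBF1 and FOXP2 passed (267 genes in all), and without the library block none of the 5 did (1 gene in all; 4 of the 5 had an unadjusted p under 0.05, and adjusted p 0.17 for EBF1 and 0.063 for FOXP2).

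**Figure D2:**
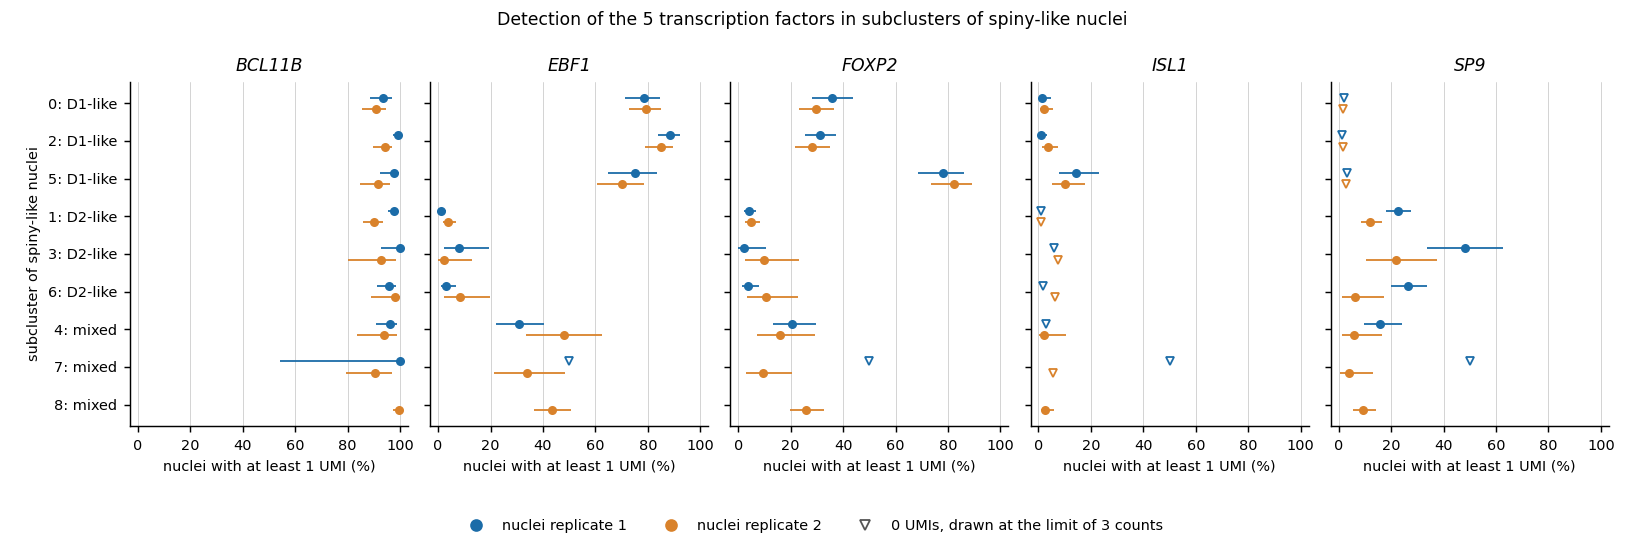
Percent of nuclei with at least 1 UMI of each factor in the spiny-like subclusters, 1 point for each nuclei library, with exact 95% binomial intervals and triangles at the limit of 3 counts where none was found. EBF1 and FOXP2 are higher in the D1-like subclusters, and SP9 is at 0 in each D1-like subcluster and highest in D2-like subcluster 3.

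EBF1 had 165.5 and 180.7 CPM in D1-like and 2.22 and 6.87 CPM in D2-like nuclei, a 74.6- and 26.3-fold difference (log2 fold change 5.62, SE 0.10). It was found in 83.0% and 79.4% of D1-like and in 2.41% and 4.23% of D2-like nuclei. Thinned to 1000 UMIs these were 14.0% and 17.2% against 0.185% and 0.563%, the latter near the microglia-like share. EBF1 was thus found in most D1-like and few D2-like nuclei.

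FOXP2 had 95.3 and 83.4 CPM in D1-like and 6.44 and 6.39 CPM in D2-like nuclei, a 14.8- and 13.0-fold difference (log2 fold change 3.85, SE 0.10). It was found in 41.1% and 40.8% of D1-like and 3.70% and 6.20% of D2-like nuclei. A single D2-like nucleus of replicate 1 held 58 of the 119 D2-like FOXP2 UMIs of that library. The D1-like nuclei were themselves uneven in FOXP2. Subcluster 5, led by SOX5 and of 92 and 107 nuclei, had 259 and 190 CPM with a UMI in 78.3% and 82.2% of nuclei, whereas the other D1-like subclusters had 62.9 and 48.7 (subcluster 0) and 43.4 and 40.9 CPM (subcluster 2).

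ISL1 followed the same subcluster. The D1-like nuclei had 19 and 27 UMIs, in 3.56% and 4.62% of nuclei, and the D2-like nuclei had 0 and 0, so that ISL1 was at least 6.35- and 6.45-fold higher on the D1-like side. Subcluster 5 held 14 and 14 of these UMIs, in 14.1% and 10.3% of its nuclei. Of the 18 and 28 spiny-like nuclei with ISL1, 18 and 26 also had UMIs of the D1 list without RELN. So did 682 of all 1159 and 685 of all 1127 spiny-like nuclei. UMIs of the D2 list were in 4 and 0 of the nuclei with ISL1, against 585 and 464 of all. UMIs of CHAT, SLC5A7, SLC18A3 or LHX8 were in 0 and 4, against 19 and 47 of all. The nuclei with ISL1 had a median depth of 43798.5 and 22644 UMIs. EBF1 was not concentrated in subcluster 5, which had 131.6 and 131.2 CPM, below the D1-like mean. These differences within the D1-like nuclei are a description with no test.

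SP9 was the mirror image. No SP9 UMI was counted in 506 and 476 D1-like nuclei, which allows up to 0.593% and 0.630% of nuclei with a UMI at this depth and sets no limit on nuclei that express the gene, and 182 and 47 UMIs were counted in D2-like nuclei (9.84 and 7.51 CPM, in 26.1% and 12.4% of nuclei). SP9 was thus at least 60.5- and 21.9-fold higher on the D2-like side. Among D2-like subclusters it was highest in subcluster 3, led by ALK, with 16.8 and 10.9 CPM in 48.0% and 22.0% of 50 and 41 nuclei, against 10.1 and 8.35 in subcluster 1 and 7.82 and 2.42 in subcluster 6. The count of 0 belongs to these subclusters: dividing the nuclei by the marker lists without RELN gave 1 and 2 SP9 UMIs in 496 and 547 D1 nuclei and 134 and 48 in 399 and 326 D2 nuclei. In that division ISL1 had 15 and 33 UMIs against 0 and 0, EBF1 2857 and 2286 against 11 and 62, and FOXP2 1512 and 910 against 20 and 21.

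BCL11B had 197.2 and 227.7 CPM in D1-like and 231.9 and 242.0 CPM in D2-like nuclei. Both libraries were lower on the D1-like side with a log2 difference of -0.15 (SE 0.05, adjusted p = 0.045). The difference is small, and it did not pass in 5 of 11 fits, with an adjusted p from 0.0022 to 1.0.

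Co-detection in single nuclei showed the same division without any clustering of subtypes. Among the spiny-like nuclei, 459 and 518 had EBF1 without SP9, 151 and 66 had SP9 without EBF1, 7 and 1 had both and 542 and 542 had neither. If detection of EBF1 and of SP9 were unrelated over all spiny-like nuclei, 63.5 and 30.9 nuclei would have had both. The odds ratio of EBF1 with SP9, taken over 5 strata of depth, was 0.047 and 0.015, so these 2 factors seldom shared a nucleus. FOXP2 was found in 40.7% and 39.4% of nuclei with EBF1 alone, in 3.31% and 3.03% of those with SP9 alone and in 10.3% and 13.3% of those with neither. The nuclei with EBF1 alone were D1-like in 420 and 378 cases and D2-like in 8 and 14, with 31 and 126 mixed. Those with SP9 alone were D2-like in 136 and 43 cases and D1-like in none, with 15 and 23 mixed.

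**Figure D3:**
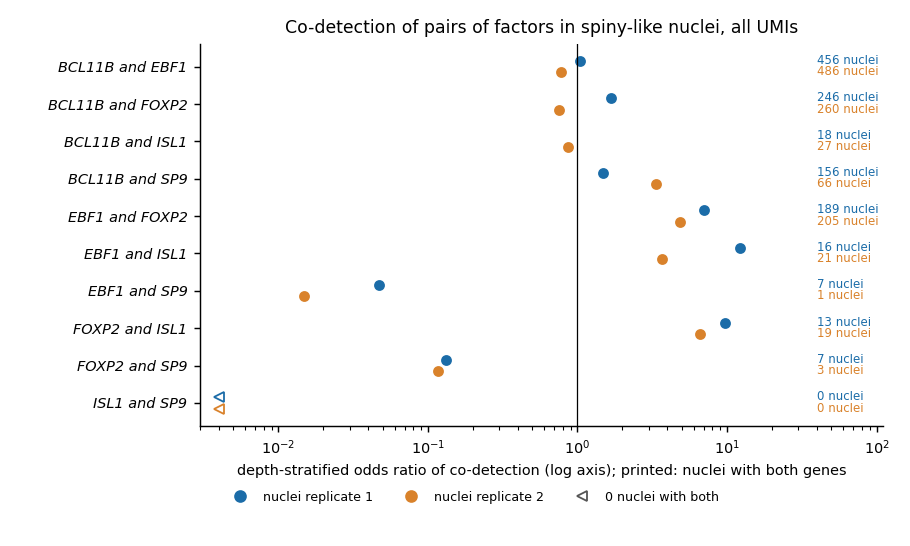
Depth-stratified odds ratio (horizontal log axis) for finding both factors of a pair in the same spiny-like nucleus, 1 point for each nuclei library, with the number of nuclei holding both printed at the right and open triangles where that number is 0. EBF1 with FOXP2 lies at 7.07 and 4.82, and EBF1 with SP9 at 0.047 and 0.015.

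EBF1 and FOXP2 were found together in 189 and 205 nuclei, where 100.5 and 128.5 would be met at independence, an odds ratio of 7.07 and 4.82. Within the D1-like nuclei alone the same pair was at independence, with 174 and 157 nuclei against 172.6 and 154.1 (odds ratio 1.03 and 1.06). FOXP2 and ISL1 were together in 13 and 19 nuclei against 3.88 and 6.93, and within the D1-like nuclei in 13 and 16 against 7.40 and 8.97 (odds ratio 3.71 and 3.96), so this pair stayed above independence there. EBF1 and ISL1, with 16 and 21 nuclei and an odds ratio of 12.2 and 3.68 over all spiny-like nuclei, were at 1.31 and 0.956 within D1-like nuclei. FOXP2 and SP9 had an odds ratio of 0.133 and 0.117, and ISL1 and SP9 shared no nucleus where 2.45 and 1.66 were to be met. BCL11B with EBF1 was near independence in both libraries (1.04 and 0.776).

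EBF1, FOXP2 and ISL1 were on the D1-like side and only SP9 on the D2-like side. By this makeup of the list, D1-like nuclei held more of the 5 factors at once than D2-like nuclei of about the same depth. The shares that follow are thus no separate result. Of the D1-like nuclei 52.2% and 50.6% had 2 factors and 33.4% and 30.0% had 3. Of the D2-like nuclei 67.8% and 73.0% had 1. No spiny-like nucleus had all 5. After thinning to 1000 UMIs only 4 and 4 nuclei had both EBF1 and FOXP2 (3.33 and 4.15 at independence, odds ratio 1.17 and 0.957) and 5 and 3 had SP9, too few to read co-detection at that depth.

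In the eccentric spiny-like nuclei FOXP2 stood beside a low level of FOXP1, its close relative and a general factor of spiny neurons. FOXP2 was found in 100% and 97.7% of these nuclei, and in 85.9% and 79.1% after thinning, against 21.6% and 24.8% (4.06% and 3.46% thinned) of spiny-like nuclei and 0.534% and 0.530% (0.437% and 0.332% thinned) of microglia-like nuclei. The FOXP2 UMIs of single eccentric spiny-like nuclei ran from 12 to 168 with a median of 58 in replicate 1 and from 0 to 172 with a median of 30 in replicate 2. FOXP1 had 134.9 and 175.1 CPM there, against 1471 and 1404 in D1-like and 1586 and 1508 in D2-like nuclei. More FOXP2 than FOXP1 UMIs were counted in 71 of 71 and 82 of 86 eccentric spiny-like nuclei, but in 1 of 506 and 0 of 476 D1-like and in none of the D2-like nuclei. FOXP1 took part in the clustering, so its low level is a description of the class.

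**Figure D4:**
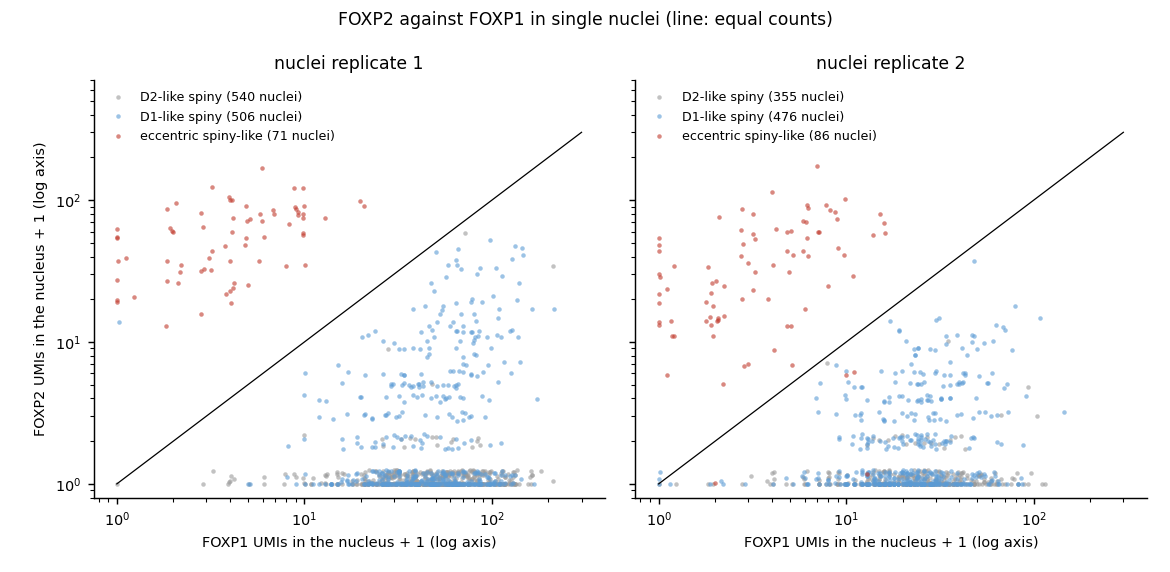
FOXP2 against FOXP1 UMIs of single nuclei (both axes log, 1 added, points jittered), by nuclei library and class, with the line of equal counts. The eccentric spiny-like nuclei lie on the FOXP2 side of the line in 71 of 71 and 82 of 86 cases, and D1-like and D2-like nuclei lie on the FOXP1 side in all but 1 case or tie.

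The other factors of the eccentric spiny-like class were BCL11B, in 97.2% and 88.4% of nuclei, and SP9, in 31.0% and 14.0%. ISL1 was not counted there. EBF1 at 1.38 and 6.21 CPM overlapped with the D2-like nuclei. The sums of astrocyte list genes were 72.5 and 77.4 CPM here against 9.11 and 15.1 in spiny-like nuclei. Those of 17 interneuron list genes, 7 and 6 of them at 0 here with PVALB, CALB2 and VIP among these, were 292.3 and 377.8 against 102.1 and 138.1 CPM. The part of either list in the factor levels was not tested.

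FOXP2 also varied among oligodendrocyte-like clusters. The cluster of 724 and 623 nuclei with ENPP6, VEPH1 and MMRN1 had 150.3 and 131.2 CPM, with a UMI in 24.3% and 21.0% of nuclei and no more than 7 in any nucleus. The other oligodendrocyte-like clusters had 24.8 and 9.32 CPM (3.25% and 1.54% of nuclei) and 13.5 and 20.3 CPM (2.22% and 2.39%). The first was 6.05- and 14.1-fold above the second and 11.1- and 6.47-fold above the third. Median depths were 2487.5 and 2289 UMIs in the first, 2193.5 and 2065 in the second and 1802 and 1344 in the third. In cholinergic-like nuclei, by contrast, 78.3% to 100% of FOXP2 UMIs came from 10 nuclei of each library, and in the PVALB cluster 97.0% and 63.6% came from 5.

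An unnamed cluster of 466 and 240 nuclei without 3 raised markers of any list combined several of the factors. It had 395.5 and 456.0 CPM of FOXP2, 301.5 and 169.8 of BCL11B and 55.4 and 40.9 of SP9, while EBF1 was at 6.44 and 12.6 and ISL1 was not counted. SOX6, a factor of forebrain GABAergic interneurons, was at 232 and 469 CPM there. The median depth was 1319 and 1141.5 UMIs, so few nuclei could show a pair of factors.

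In the cholinergic-like cluster 4 of the 5 factors differed between nuclei with and without a UMI of cholinergic genes, as a description with no test. Only 14 of 157 and 14 of 165 of its nuclei had a UMI of CHAT, SLC5A7, SLC18A3 or LHX8, and their median depth was 5458.5 and 21694 UMIs against 1778 and 1607 in the others, at which the lack of a UMI does not show the lack of a transcript. Those nuclei had 12 and 10 of the cluster's 14 and 13 ISL1 UMIs, in 5 and 8 nuclei (41.0 and 25.2 CPM). They had only 17.1 and 5.04 CPM of BCL11B, from 5 and 2 UMIs, and 0 and 0 UMIs of EBF1. The other 143 and 151 nuclei had 335 and 339 CPM of BCL11B, 79.4 and 76.9 of EBF1 and 2 and 3 UMIs of ISL1. FOXP2 was at 131 and 841 CPM in these others, against 3.42 and 32.8 in the nuclei with cholinergic genes. SP9 had 1 and 1 UMIs with and 3 and 0 without those genes, too few to compare. LHX8, a LIM homeodomain factor of cholinergic neurons, had 158 and 156 CPM in the cluster, and SLC18A3 and GBX2 were listed at 0.

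Other spiny neuron and ganglionic eminence factors gave a frame for the 5. Of a list of 46, 44 were measured and 35 could be tested between classes; they took part in the clustering, so their counts describe the classes. Against the mean of the other classes 16 were higher in spiny-like nuclei and 10 lower, with a median log2 fold change of 0.42 over the list and 0.05 over all genes, of which 4008 were higher and 2529 lower (50.8% of 12860). The highest were DLX6 (3.18), BCL11A (3.10) and MYT1L (3.07), and the lowest ZNF521 (-4.07), TCF4 (-3.75) and IKZF2 (-3.30). Against interneuron-like nuclei 11 were higher, led by PBX3 (3.68), SIX3 (3.59) and MEIS2 (2.89), and 11 lower, led by TCF4 (-5.25), ST18 (-5.08) and DLX1 (1 and 2 UMIs in spiny-like against 3 and 10 in interneuron-like nuclei), with a median of -0.20 over the list and 0.03 over all genes. Of all genes 2230 were higher and 2132 lower in this comparison (33.9%). BCL11B and EBF1 thus lay on the side of PBX3, SIX3 and MEIS2 in this comparison, and SP9 on the other.

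Between D1-like and D2-like nuclei 3 of 36 tested list members were higher on the D1-like side and 10 lower (median -0.25, against 0.00 over all genes, of which 485 were higher and 488 lower, or 7.06% of 13783). BACH2 was lowest, at 28.8 and 55.7 CPM in D1-like and 99.5 and 128.5 in D2-like nuclei, followed by IKZF2 (log2 fold change -1.33) and ST18 (-1.33). MEF2C was higher on the D1-like side, with 87.8 and 67.2 against 46.9 and 30.8 CPM, and so was TSHZ2, though its libraries differed (34.9 and 44.2 against 6.76 and 36.9). The largest of these log2 fold changes was -1.51 (BACH2), against 5.62 for EBF1 and 3.85 for FOXP2. The division set out first gave 0 higher and 1 lower (BACH2) of 32, beside 0.697% of all genes.

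The genes most like each factor over the 16 sums of class and library were ranked by Pearson correlation of log2 CPM among 9079 genes (9080 for ISL1), a description in which the sums share libraries and depth. BCL11B was most like TVP23A (r = 0.983), CNTNAP5 (0.981) and FAM117B (0.981). EBF1 was most like UXS1 (0.915), HDGFL2 (0.912) and SH3BGRL2 (0.910). FOXP2 was most like VWC2L (0.879), OTOF (0.867) and CLNS1A (0.844), and VWC2L had 292.8 and 312.9 CPM in eccentric spiny-like against 43.8 and 51.6 in spiny-like nuclei. ISL1 was most like ASB18 (0.882), SCGN (0.856) and the choline transporter gene SLC5A7 (0.826), and SCGN had 337.8 and 352.2 CPM in cholinergic-like nuclei. SP9 was most like SNRPN (0.871), RUNDC3A (0.865) and FMN1 (0.864).

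The comparison of the series, nuclei against whole cells, was made on sums over all barcodes of each library. In such sums fewer cells of a type and less RNA per cell cannot be told apart. Of the 2162 and 32500 whole-cell barcodes, 0 and 0 passed the limits on genes and mitochondrial share used for nuclei. Whole cells were counted with Cell Ranger 6.0.1 and nuclei with 7.0.0, so kind of input and software version cannot be told apart either. The whole-cell libraries held few transcripts of the 5 factors: 3 and 132 UMIs of BCL11B, 2 and 40 of FOXP2, 0 and 41 of SP9, 0 and 3 of ISL1 and 0 and 0 of EBF1. The nuclei libraries held 10981 and 8218 of BCL11B, 7831 and 6056 of FOXP2, 3832 and 3196 of EBF1, 506 and 190 of SP9 and 34 and 52 of ISL1. Mitochondrial transcripts were most of the whole-cell UMIs, leaving 125974 and 2512837 others against 69924470 and 50705635 in nuclei, and the next values are per 1000000 of these.

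**Figure D5:**
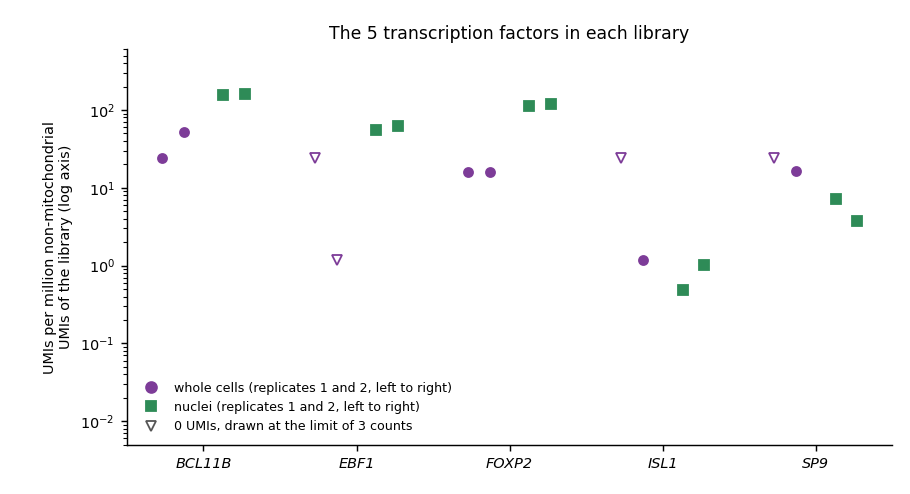
Level of each factor in the 4 libraries, in UMIs per 1000000 non-mitochondrial UMIs (vertical log axis), with triangles at the limit of 3 UMIs where none was counted. BCL11B and FOXP2 are higher in both nuclei libraries, and SP9 in whole-cell replicate 2, at 16.3, lies above both nuclei libraries, while whole-cell replicate 1 has only a limit of 23.8.

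BCL11B had 157.0 and 162.1 of these CPM in nuclei and 23.8 and 52.5 in whole cells, a ratio within a pool of animals of 6.59 (95% counting interval 2.26 to 32.0, from 3 whole-cell UMIs) and 3.09 (2.60 to 3.69). FOXP2 had 112.0 and 119.4 in nuclei and 15.9 and 15.9 in whole cells, a ratio of 7.05 (1.95 to 58.3, from 2 whole-cell UMIs) and 7.50 (5.50 to 10.5). EBF1 had 54.8 and 63.0 in nuclei and no UMI in whole cells, where limits of 23.8 and 1.19 apply, so it was at least 2.30- and 52.8-fold higher in nuclei. The groups did not overlap for these 3 factors. How many of all genes likewise did not overlap was not counted, but 52.2% of the 15781 genes tested passed the test below. SP9 had 7.24 and 3.75 in nuclei, and in whole cells no UMI in replicate 1 (limit 23.8) and 16.3 in replicate 2, which was 4.35-fold above the nuclei of the same animals. ISL1 had 0.486 and 1.03 in nuclei and 1.19 in whole-cell replicate 2.

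In edgeR 4 of the 5 differed between nuclei and whole cells, where 52.2% of the 15781 genes tested did. The log2 fold change of nuclei over whole cells was 1.73 for BCL11B (SE 0.49, adjusted p = 0.0034) and 2.74 for FOXP2 (SE 0.50, adjusted p = 2.6e-05), where the median of all genes was 0.61. EBF1 passed as well, and ISL1 did not (-0.76, SE 1.11, adjusted p = 0.58). In nuclei SP9 fell by 1.47 on the log2 scale (SE 0.57, adjusted p = 0.030), but scaling by library size alone, which counts mitochondrial UMIs and moves the median of all genes to 3.66, gave 1.64 (adjusted p = 0.034), and the adjusted p ran up to 0.87 over the alternatives. With the animal pool as a block the SP9 adjusted p was 0.17. The SP9 call was also lost without nuclei replicate 1 (adjusted p = 0.052) and without nuclei replicate 2 (adjusted p = 0.35), and without whole-cell replicate 2, which held all 41 whole-cell UMIs (adjusted p = 0.36). The BCL11B call was lost without nuclei replicate 1 (adjusted p = 0.078).

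Of the list of other factors, 21 of 40 tested were higher in nuclei and 7 lower, with a median log2 fold change of 1.34 over the list and 0.61 over all genes. Of all 15781 genes, 4695 were higher and 3536 lower (52.2%). FOXP4 was counted 168 and 175 times in nuclei and never in either whole-cell library, and the next highest were BACH2 and PBX3. The lowest were POU3F1, EGR3 and CITED2. BCL11B, EBF1 and FOXP2 thus lay with the larger group of the list. Their whole-cell counts were low and came from barcodes outside the limits used for nuclei, so these counts were not divided by cell class.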

How the data were processed

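The authors deposited raw UMI counts per gene and barcode for 2 whole-cell and 2 nuclei libraries. They were written by Cell Ranger 6.0.1 (whole cells) and 7.0.0 (nuclei), per the file headers; the submitters' processing notes also name Cell Ranger 2.1.1 and STAR 2.7.2a. The genome build and whether intronic reads were counted are not given in the sources used here, and intron counting would bear most on nuclei. The titles give sheep 3 and 4 for the second pool, whereas the protocol text names animals 2 and 3; the titles were used. No gene sequences or coordinates were used here.

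Barcodes of the nuclei libraries were kept if they had 200 or more genes and no more than 5% of UMIs from mitochondria. Scrublet called 390 of 8700 and 0 of 8388 barcodes and was taken to have failed in the second library, so the 8% with the highest scores were removed from each (696 and 671). Counts were scaled to 10000 and clustered with scanpy 1.11.5 (2000 variable genes, 30 components, 15 neighbours, Leiden resolution 0.5) with the 5 factors left out. A cluster was named where at least 3 markers of a list were 2-fold raised; this limit and the D1-like and D2-like limits were set after seeing the data. DRD1 and 9 other listed markers have no symbol in the tables.

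UMI sums per class and library were tested with edgeR 4.0.16 in R 4.3.3 (quasi-likelihood test, TMM factors, filterByExpr, Benjamini-Hochberg adjustment over all genes, threshold 0.05), with DESeq2 1.42.0 as an alternative. Library was a block between nuclei classes, which come from the same animals. Nuclei and whole cells were compared without a block. By the titles replicate numbers mark the same animals there, and deviations of same-numbered libraries correlated at -0.08 over 2293 genes. Residual degrees of freedom were 7 between classes, 1 between D1 and D2 groups and 2 between nuclei and whole cells. Shares have exact 95% binomial intervals and CPM exact Poisson intervals. A count of 0 is given the limit of 3 UMIs. Intervals and limits cover counting error only. On simulated counts the script recovered the changes it was given.

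All 5 factors are named in every comparison, with the 3 genes of at least 500 UMIs most correlated with each and, of 46 other factors, the 3 with the largest change in each direction that passed. Other genes and clusters named were chosen after their values were seen. The members and lists were chosen with earlier results of these data known.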

Additional observations from a re-analysis of the deposited data

How the results depend on the processing

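Of 265 alternative fold changes of single factors, 204 kept their direction and their side of the threshold or, without a test, moved within the spread, 25 lost the threshold, 6 passed it, 17 without a test moved beyond the spread and 13 changed direction. In spiny-like nuclei against the other classes, DESeq2 called 2 of the 5 factors (6819 genes in all, against 6537), and FOXP2 turned to 1.44 with doublets kept, 2.19 at resolution 1.0 and 0.48 with at least 500 genes. Against interneuron-like nuclei FOXP2 turned to -0.25 with library size alone, -0.046 with DESeq2 and -0.042 with 4000 variable genes, none past the threshold. In the D1 against D2 division set out first, DESeq2, doublets kept and resolution 1.0 each called 1 of 4 factors tested (29, 81 and 66 genes in all), whereas the subclusters and the D1 list without RELN each called 5 and turned BCL11B to -0.15 and -0.23 (-0.011 with library size alone). The genes called there numbered 84, and 32 with no replicate block, 15 at 2 UMIs or more of a list, 973 in the subclusters and 702 without RELN. Between the subclusters DESeq2 called 2 factors and 267 genes, the fit with no replicate block 0 factors and 1 gene (207 genes and 4 factors at an unadjusted p under 0.05), and the clustering with the factors kept in 644 genes. The cause of these differences was not tested.

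Between nuclei and whole cells 8231 genes passed, 13035 (12537 higher in nuclei and 498 lower, against 4695 and 3536) with library size alone, where ISL1 turned to 2.35 and SP9 to 1.64, and 5471 with the replicate block for the animal pool, which changed the call of SP9 only among the 5 factors. Leaving out 1 library gave 2 to 4 factors, 4864 to 10007 genes (4864 without whole-cell replicate 2 and 5438 without nuclei replicate 2), ISL1 values of -0.79 to 7.89 and SP9 values of -2.21 to 10.81, the highest of each fitted against 0 UMIs without whole-cell replicate 2 and no bound. The fit with a lone library assumes that it varies like the other group. Depth limits the shares: BCL11B was in 9.32% and 11.2% of spiny-like nuclei at 500 UMIs, 32.0% and 37.6% at 2000 and 97.2% and 93.3% not thinned, and EBF1 with FOXP2 in 0.0887% at 500 UMIs (replicate 2), 1.64% and 2.05% at 2000 and 16.3% and 18.2% not thinned. In the comparisons among nuclei classes, leaving out a pool gives a value with no test.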
